A study of Mus musculus with 11 samples.

Results

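The stefin A gene cluster of the mouse is a row of closely related genes on chromosome 16. Its 8 members, Stfa1, Stfa2, Stfa2l1, Stfa3, BC100530, Gm5416, Gm5483 and BC117090, were taken by symbol from the 51912 genes of the count table. All 8 were among the 15703 genes that passed the filter on low counts and were tested. Stefins are small cytosolic proteins of the cystatin family. They bind and block papain-like cysteine proteases such as the lysosomal cathepsins, and are thought to guard the cell against protease that leaks out of lysosomes. Where other mammals carry few stefin A genes, the mouse locus has expanded into many copies, whose transcripts are known from neutrophils and other myeloid cells.

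RNA-seq counts were available for 11 samples of C57BL/6 mouse bone marrow, and the question was whether the order in which 2 leukemia oncogenes are switched on sets the state of the cells. The oncogenes were human CSF3R T618I, an activated receptor for granulocyte colony-stimulating factor, and CEBPA V314VW, a C-terminal mutant of a transcription factor that directs myeloid differentiation. Each cell carried a constitutive retroviral vector (MIG, marked by GFP) and an inducible one (idsRed, marked by RFP), the latter opened by a tamoxifen-activated Cre recombinase that is expressed from the ubiquitous Rosa26 locus. In CSF3R-only cells (n = 4), CSF3R T618I was in the constitutive vector and the inducible vector was empty. In CSF3R-first cells (n = 3), CSF3R T618I was constitutive and CEBPA V314VW inducible. In CEBPA-first cells (n = 4), CEBPA V314VW was constitutive and CSF3R T618I inducible. All groups received 4-hydroxytamoxifen for 48 h after lineage-negative, GFP and RFP double-positive cells had been sorted. CSF3R-first cells had therefore expressed mutant CEBPA only since the start of that culture, and no group lacked CSF3R T618I. A group without any oncogene was not analysed here. Replicates are lettered A to D in the labels, which do not say whether the letters stand for separate animals or cultures. P-values thus measure the spread between these samples, which may be technical.

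Total counts ranged from 47905747 to 72268346 per sample. The endogenous mouse Cebpa gene was at 87.2 ± 6.98, 131 ± 10.4 and 167 ± 6.12 CPM (mean ± SD, here and below in the order CSF3R-only, CSF3R-first, CEBPA-first) and mouse Csf3r at 846 ± 94.9, 516 ± 118 and 154 ± 16.1 CPM, where CPM is the count of a gene as a rate over all counts of the sample, after TMM scaling. Both oncogenes are human, and whether their reads were counted under the mouse genes was not tested, so these values do not check the transgenes. The cells had the RNA of myeloid cells: the 5 primary granule genes (Mpo, Elane, Prtn3, Ctsg and Ms4a3) summed to 2860 to 6757 CPM over all samples, whereas the 4 B cell genes summed to at most 0.821 CPM and the 3 T cell genes to at most 0.346 CPM. Stefin A is also a product of keratinocytes. Of the 5 epidermal genes, Krt5 and Krt14 had no count in any sample, Krt1 and Lor had at most 2 counts, and Krt10 was at 0.973 ± 0.354, 0.968 ± 0.0566 and 0.929 ± 0.122 CPM, with no call in any comparison.

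The members lie within 299 kb, chr16:36156811-36455392 of GRCm38. Stfa2l1 (chr16:36156811-36161953), Gm5483 (chr16:36184212-36188111), Gm5416 (chr16:36210403-36217788) and Stfa1 (chr16:36276951-36285373) are on the plus strand. BC117090 (chr16:36321665-36334332), BC100530 (chr16:36359382-36367748), Stfa2 (chr16:36403992-36408457) and Stfa3 (chr16:36450537-36455392) follow on the minus strand. Each is protein-coding, with 3 coding exons and a coding sequence of 288 to 309 bases. How far a read can be assigned to 1 copy depends on the sequence, so a coding stretch of 100 bases, the length of 1 read of this study, is shown for each member. It is the stretch that aligns to bases 141 to 240 of the Stfa1 coding sequence, the first 100 bases over which Stfa1 and BC100530 do not differ. The sequences are from the GENCODE M21 transcripts of GRCm38, 5′ to 3′, and capitals mark bases that differ from Stfa1.
Stfa1: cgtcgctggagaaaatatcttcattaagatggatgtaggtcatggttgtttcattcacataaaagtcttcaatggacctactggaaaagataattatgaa
Stfa2: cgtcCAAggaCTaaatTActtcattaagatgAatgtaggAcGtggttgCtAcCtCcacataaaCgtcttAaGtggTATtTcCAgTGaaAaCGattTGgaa
Stfa2l1: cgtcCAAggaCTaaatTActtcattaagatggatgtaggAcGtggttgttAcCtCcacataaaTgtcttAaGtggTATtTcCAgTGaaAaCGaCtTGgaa
Stfa3: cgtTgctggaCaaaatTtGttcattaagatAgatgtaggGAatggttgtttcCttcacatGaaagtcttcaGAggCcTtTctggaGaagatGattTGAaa
BC100530: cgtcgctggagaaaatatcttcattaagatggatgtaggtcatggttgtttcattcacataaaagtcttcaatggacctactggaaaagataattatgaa
Gm5416: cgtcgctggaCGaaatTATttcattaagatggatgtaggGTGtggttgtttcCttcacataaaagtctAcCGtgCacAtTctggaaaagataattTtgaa
Gm5483: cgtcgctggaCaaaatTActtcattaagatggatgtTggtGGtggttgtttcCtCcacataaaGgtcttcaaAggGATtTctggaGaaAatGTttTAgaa
BC117090: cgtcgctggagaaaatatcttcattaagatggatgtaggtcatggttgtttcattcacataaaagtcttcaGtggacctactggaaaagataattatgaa

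Over this stretch BC100530 had 0 and BC117090 1 difference from Stfa1, against 16 in Gm5416, 19 in Stfa3, 20 in Gm5483, 29 in Stfa2l1 and 30 in Stfa2. Over the whole coding sequence, 3 groups of close copies stood out. Stfa1 and BC100530 were identical at 97.9% of aligned bases, and BC117090 matched them at 94.4% and 96.2%. Stfa2 and Stfa2l1 were identical at 96.4%, and Gm5483 at 96.9% to 2010005H15Rik, a further stefin A gene of the cluster. Stfa3 and Gm5416 had no such partner: Stfa3 reached at most 83.5% and Gm5416 at most 88.3% identity with any other member. Of all windows of 100 bases in the longest coding transcript, 22.3% of BC100530, 13.5% of BC117090, 11.1% of Gm5483 and 5.60% of Stfa1 recurred exactly in another gene's transcript. With up to 2 mismatches allowed, 30.6% to 54.0% of the windows of Stfa1, Stfa2, Stfa2l1, BC100530, Gm5483 and BC117090 had a match in another stefin A gene, and 0 of those of Stfa3 and Gm5416 did. How reads with several matches were counted is not given in the sources used here. The values of single copies are therefore uncertain except for Stfa3 and Gm5416, and the sum over the 8 members is given beside them.

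The starts of the genes resembled each other as well. Of the 8 members, 7 matched an entry among the RefSeq promoters of GRCm38.p6 (250 bases before to 50 bases after the start of each gene), through Entrez Gene numbers because RefSeq calls Gm5483 Cstdc4, Gm5416 Csta3 and BC100530 Cstdc5; BC117090 had none. Stretches of 70 bases are shown, 5′ to 3′ on the strand of the gene, because they hold 2 runs of letters that the members share, TTTAAAA and GGAGGAG, in capitals. They lie at chr16:36156743-36156812 (plus, Stfa2l1), chr16:36184148-36184217 (plus, Gm5483), chr16:36210291-36210360 (plus, Gm5416), chr16:36277083-36277152 (plus, Stfa1), chr16:36367545-36367614 (minus, BC100530), chr16:36408358-36408427 (minus, Stfa2) and chr16:36455389-36455458 (minus, Stfa3).
Stfa2l1: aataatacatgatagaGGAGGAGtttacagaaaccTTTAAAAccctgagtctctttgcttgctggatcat
Gm5483: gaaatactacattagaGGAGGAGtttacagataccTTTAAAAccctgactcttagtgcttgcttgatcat
Gm5416: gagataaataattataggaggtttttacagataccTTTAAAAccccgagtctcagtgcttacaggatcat
Stfa1: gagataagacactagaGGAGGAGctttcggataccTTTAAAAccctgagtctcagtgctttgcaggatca
BC100530: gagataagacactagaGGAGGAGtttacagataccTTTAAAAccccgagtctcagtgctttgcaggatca
Stfa2: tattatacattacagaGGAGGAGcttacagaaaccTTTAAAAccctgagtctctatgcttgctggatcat
Stfa3: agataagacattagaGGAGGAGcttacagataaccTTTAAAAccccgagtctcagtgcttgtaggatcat

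TTTAAAA, a sequence of the kind known as a TATA box, was in 7 of 7 member promoters and in 8.74% of all 32851 RefSeq promoters. It began 29 to 33 bases before the RefSeq start in Stfa2l1, Gm5483, Stfa1, Stfa2 and Stfa3, 9 bases before it in BC100530 and 77 bases before it in Gm5416. The Gm5416 model has 0 bases before its start codon, so its 77 bases may not run from a start of transcription. GGAGGAG was in 6 of 7 (not in Gm5416), against 18.0% of all promoters. Both were picked after the promoters had been read. For the factors of this experiment, 3 short motifs were searched on both strands. TTNCNNAA, a loose form of the C/EBP site, was in 6 of 7 member promoters (not in Stfa3) and in 40.7% of all. GAGGAA, the core of sites for ETS factors such as PU.1, was in 6 of 7 (not in Gm5416) and in 28.3% of all, and TTCNNNGAA, the STAT palindrome, was in 1 of 7 (Gm5483) and in 8.30% of all. The RefSeq promoter of 2010005H15Rik held none of these motifs, and that of the neighbouring Csta1 held GGAGGAG and GAGGAA only. Promoters of gene copies are not independent of each other, and a match of letters is not a bound site.

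The group of copies around Stfa1 held most of the stefin A counts. Stfa1 was at 1349, 1108, 941 and 1183 CPM in the CSF3R-only samples A to D, 774, 407 and 494 CPM in the CSF3R-first samples A to C, and 37.9, 28.8, 27.7 and 31.2 CPM in the CEBPA-first samples A to D. BC100530 was at 1091, 916, 845 and 964 CPM in the CSF3R-only samples A to D, 488, 246 and 351 CPM in the CSF3R-first samples A to C, and 31.5, 24.9, 27.01 and 22.5 CPM in the CEBPA-first samples A to D. BC117090, by far the lowest member, was at 9.37, 7.35, 7.16 and 8.82 CPM in the CSF3R-only samples A to D, 3.61, 1.47 and 2.99 CPM in the CSF3R-first samples A to C, and 0.291, 0.188, 0.115 and 0.204 CPM in the CEBPA-first samples A to D. For these 3 genes the groups did not overlap: every CSF3R-only sample was above every CSF3R-first sample, and every CSF3R-first sample above every CEBPA-first sample. BC117090 rested on 355 to 557 counts per CSF3R-only sample, 73 to 189 per CSF3R-first sample and 6 to 17 per CEBPA-first sample, so that its lowest values carry the most counting error. All the other members had at least 55 counts in every sample.

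The Stfa2 pair showed the same order. Stfa2 was at 361, 298, 301 and 324 CPM in the CSF3R-only samples A to D, 113, 55.1 and 80.2 CPM in the CSF3R-first samples A to C, and 9.23, 8.25, 8.74 and 6.33 CPM in the CEBPA-first samples A to D. Stfa2l1 was at 381, 317, 309 and 334 CPM in the CSF3R-only samples A to D, 186, 93.9 and 125 CPM in the CSF3R-first samples A to C, and 13.5, 10.5, 11.4 and 9.19 CPM in the CEBPA-first samples A to D. In CSF3R-only samples the pair was counted almost equally, and in every CSF3R-first and CEBPA-first sample Stfa2 was below Stfa2l1: the ratio of their counts was 0.939 to 0.975 in CSF3R-only, 0.586 to 0.641 in CSF3R-first samples and 0.681 to 0.788 in CEBPA-first. Gm5483 was at 898, 767, 723 and 800.0 CPM in the CSF3R-only samples A to D, 488, 246 and 317 CPM in the CSF3R-first samples A to C, and 29.7, 22.4, 27.01 and 20.7 CPM in the CEBPA-first samples A to D. It too was ordered CSF3R-only, CSF3R-first, CEBPA-first from high to low with no overlap.

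The members without a close copy, Gm5416 and Stfa3, reached the lowest levels in CEBPA-first cells apart from BC117090. Gm5416 was at 123, 109, 92.9 and 112 CPM in the CSF3R-only samples A to D, 51.8, 23.04 and 32.2 CPM in the CSF3R-first samples A to C, and 1.34, 1.09, 1.06 and 1.34 CPM in the CEBPA-first samples A to D. Stfa3 was at 189.6, 157, 162 and 172 CPM in the CSF3R-only samples A to D, 37.6, 15.2 and 21.7 CPM in the CSF3R-first samples A to C, and 1.81, 1.500, 1.79 and 1.25 CPM in the CEBPA-first samples A to D. The means of Gm5416 were 109 ± 12.6, 35.7 ± 14.7 and 1.21 ± 0.153 CPM, and those of Stfa3 170.1 ± 14.5, 24.8 ± 11.5 and 1.59 ± 0.265 CPM. The groups did not overlap for either gene.

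**Figure D1:**
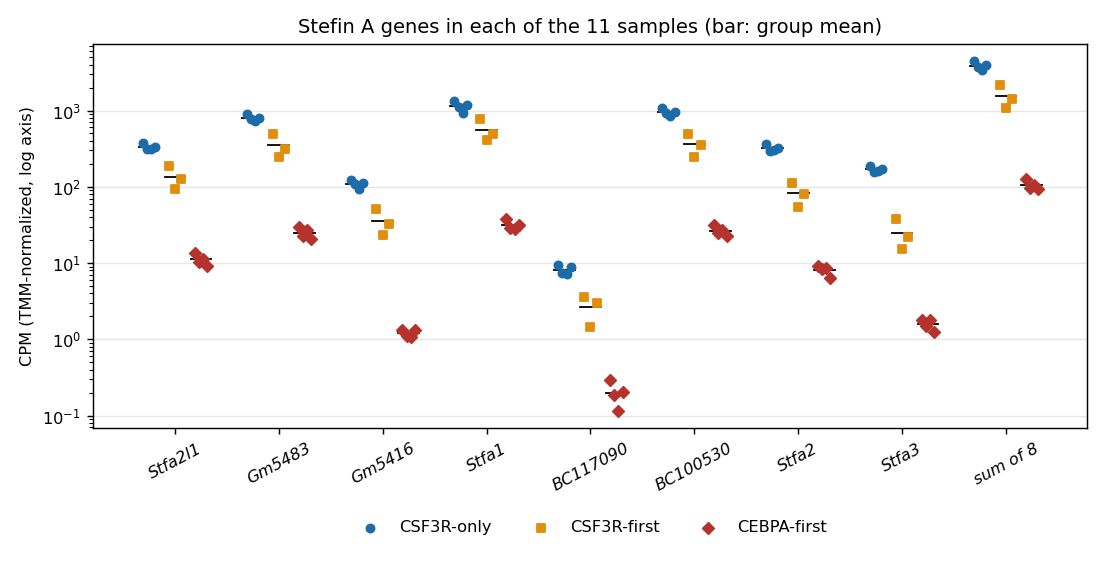
Level of each stefin A gene and of their sum in every sample, as TMM-normalized CPM on a log axis, with genes in chromosomal order. Points are samples, coloured and shaped by group (CSF3R-only n = 4, CSF3R-first n = 3, CEBPA-first n = 4), and bars are group means; no 2 groups overlap for any of the 8 genes or the sum.

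Summed over the 8 members, which leaves aside how reads were split among them but not between Gm5483 and 2010005H15Rik or BC100530 and Gm15845, the cluster was at 4401, 3679, 3382 and 3899 CPM in the CSF3R-only samples A to D, 2141, 1087 and 1424 CPM in the CSF3R-first samples A to C, and 125, 97.5, 105 and 92.7 CPM in the CEBPA-first samples A to D. The means were 3840.1 ± 429.7, 1551 ± 538 and 105 ± 14.4 CPM. The sum was thus 36.5-fold lower in CEBPA-first cells than in CSF3R-only cells (SD 6.45, from the spread of both groups), 2.48-fold lower in CSF3R-first than in CSF3R-only (SD 0.903), and 14.8-fold lower in CEBPA-first than in CSF3R-first (SD 5.50). As a share of all counts, these 8 genes took 0.365% ± 0.0359 in CSF3R-only, 0.155% ± 0.0462 in CSF3R-first samples and 0.0110% ± 0.00134 in CEBPA-first. In CPM, which is not scaled by length, 80 tested genes were above Stfa1 in CSF3R-only cells, 111 above BC100530 and 149 above Gm5483. In CEBPA-first cells 5955 genes were above Stfa1. In bulk RNA, fewer cells that express a gene and less of its RNA per cell cannot be told apart.

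Levels of different genes can be compared only per length. In CPM per kb of the longest coding transcript, CSF3R-only cells had 1925 ± 179.7 of Gm5483, 1856 ± 274 of Stfa1 and 1541 ± 167 of BC100530, whose samples overlapped from each to the next. Stfa2l1 at 800.1 ± 76.3 and Stfa2 at 682 ± 61.6 were lower, and Stfa3 at 413 ± 35.3 and Gm5416 at 371 ± 42.7 lower again, with overlap inside each of these sets and none between them. BC117090 was last at 21.1 ± 2.82. In CSF3R-first cells Stfa1 at 904 ± 311 was above Gm5483 at 846 ± 299.7 CPM per kb, with overlap. In CEBPA-first cells the order was that of CSF3R-only except at Stfa3 and Gm5416: Gm5483 60.3 ± 10.00, Stfa1 50.9 ± 7.39, BC100530 42.8 ± 6.23, Stfa2l1 26.6 ± 4.38, Stfa2 17.3 ± 2.69, Gm5416 4.10 ± 0.521, Stfa3 3.85 ± 0.644 and BC117090 0.516 ± 0.187 CPM per kb. The gene model of Gm5416 holds hardly more than its coding bases, and untranslated bases are not part of its length. The place of Gm5483 depended on the length used, since its transcript has 414 bases and all its annotated exons together have 1862. Over all annotated exon bases, a length chosen after seeing the data, Gm5483 was at 428 ± 39.9 CPM per kb in CSF3R-only cells, below Stfa1, BC100530, Stfa2l1 and Stfa2 without overlap, and at 13.4 ± 2.22 in CEBPA-first cells, where it overlapped Stfa2 (17.3 ± 2.69). Stfa1 then came first in these groups, at 1613 ± 238 and 44.2 ± 6.42 CPM per kb, and its samples overlapped those of BC100530.

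In CEBPA-first against CSF3R-only cells, all 8 members fell past the threshold (edgeR quasi-likelihood test, Benjamini-Hochberg adjusted p under 0.05 and a log2 fold change beyond 1), where 19% of the 15703 tested genes were called lower and 8.07% higher. By the adjusted p alone it was 8 of 8 members against 36.6% of tested genes. The median log2 fold change was -5.25 over the members and -0.0045 over all tested genes. Stfa3 fell by 6.76 on the log2 scale (SE 0.27, adjusted p = 7.2e-10) and only 14 tested genes had a lower log2 fold change. Gm5416 followed at -6.49 (SE 0.25, adjusted p = 6.1e-10). The other 6 lay close together, from -5.33 in BC117090 and -5.31 in Stfa2 through -5.19 in Stfa1, -5.17 in BC100530 and -5.00 in Gm5483 to -4.91 (SE 0.20, adjusted p = 9.6e-10) in Stfa2l1. Every CEBPA-first sample was below every CSF3R-only sample in 8 of 8 members and in 34.5% of tested genes.

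In CSF3R-first against CSF3R-only cells, which share the constitutive receptor and differ by mutant CEBPA in the last 48 h, all 8 members also fell past the threshold, where 4.53% of tested genes were called lower and 2.13% higher; by the adjusted p alone it was 8 of 8 against 21.1%. The median log2 fold change was -1.501 over the members and -0.02 over all tested genes. The members spread out here. Stfa3 fell most, at -2.78 (SE 0.24, adjusted p = 5.5e-06), and Stfa2 next, at -1.956 (SE 0.20, adjusted p = 2.3e-05). Gm5416 (-1.61), BC117090 (-1.60), BC100530 (-1.40), Stfa2l1 (-1.31) and Gm5483 (-1.19) lay between. Stfa1 fell least, at -1.04 (SE 0.19, adjusted p = 0.0013), just past the fold limit. Without the CSF3R-first sample B, whose stefin A levels were the lowest of its group, the calls of Stfa1 (log2 fold change -0.85) and Gm5483 (-0.98) were lost to the fold limit. The call of Stfa1 was also lost without CSF3R-first sample C (-0.94) or CSF3R-only sample A (-0.95). Every CSF3R-first sample was below every CSF3R-only sample in 8 of 8 members and in 21.4% of tested genes.

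In CEBPA-first against CSF3R-first cells, where both oncogenes were present and their order and the time under each differed, all 8 members fell past the threshold, where 10.3% of tested genes were called lower and 2.57% higher; by the adjusted p alone it was 8 of 8 against 24.3%. Gm5416 fell most, at -4.87 (SE 0.25, adjusted p = 6.8e-08), then Stfa1, at -4.15 (SE 0.21, adjusted p = 6.8e-08). Stfa3 (-3.98), Gm5483 (-3.81), BC100530 (-3.77), BC117090 (-3.73) and Stfa2l1 (-3.60) followed, and Stfa2 fell least, at -3.35 (SE 0.20, adjusted p = 1.8e-07). The median was -3.79 over the members and 0.00052 over all tested genes. Every CEBPA-first sample was below every CSF3R-first sample in 8 of 8 members and in 24.8% of tested genes, and all 3 groups were apart in the order CSF3R-only, CSF3R-first, CEBPA-first in 8 of 8 members against 13.4%. The 3 comparisons share samples and are not independent of each other.

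**Figure D2:**
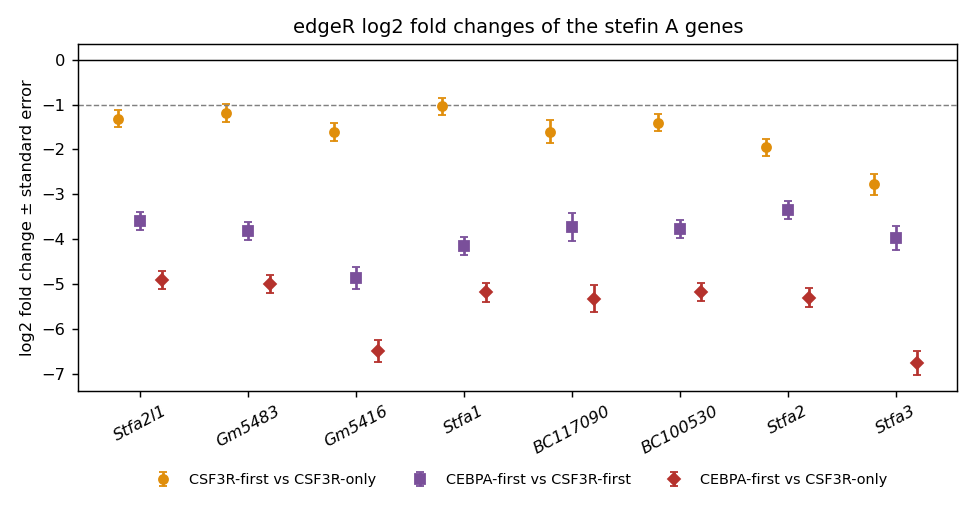
Fold change of each stefin A gene on the log2 scale in the 3 comparisons, from edgeR, with genes in chromosomal order. Points are fitted values, error bars are standard errors and the dashed line is the limit of -1; Stfa3 and Gm5416 are lowest in CEBPA-first against CSF3R-only, at -6.76 and -6.49, and Stfa3 is lowest in CSF3R-first against CSF3R-only, at -2.78.

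Where CSF3R-first cells stood between the other groups was expressed as a position on the log2 scale, with CSF3R-only at 0 and CEBPA-first at 1. The sum of the cluster was at 0.261 ± 0.0948 (n = 3, range 0.161 to 0.349), nearer to CSF3R-only in every sample. Stfa1 had the lowest position, 0.208 ± 0.0918, and Stfa3 the highest, 0.427 ± 0.0977, with Stfa2 at 0.379 ± 0.0978 and Gm5416 at 0.261 ± 0.0908. The samples of Stfa1 (0.107 to 0.286) and Stfa3 (0.323 to 0.517) did not overlap. The CSF3R-first samples ranked alike for all members: sample A was highest and sample B lowest in 8 of 8 members. Across all 11 samples, the log2 CPM of any 2 members correlated at a Pearson's r of 0.974 or more (28 pairs, median 0.993), with the points in 3 separate groups. After the group means had been taken off, r was 0.627 to 0.991 (median 0.861). These correlations are descriptions: the members share each library, and close copies may share reads.

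The make-up of the stefin A counts differed between groups. Stfa3 held 4.44% ± 0.235 of them in CSF3R-only, 1.56% ± 0.181 in CSF3R-first samples and 1.51% ± 0.150 in CEBPA-first. The ranges of CSF3R-first and CEBPA-first overlapped, and both lay below CSF3R-only. Gm5416 held 2.84% ± 0.0883, 2.27% ± 0.150 and 1.16% ± 0.197, and no pair of groups overlapped. Stfa1 held 29.7% ± 1.28 in CSF3R-only and, without overlap, 36.1% ± 1.36 in CSF3R-first, and was at 29.95% ± 2.98 in CEBPA-first. Stfa2 was lowest in CSF3R-first, with 8.38% ± 0.366, 5.32% ± 0.286 and 7.75% ± 0.782. Its close copy Stfa2l1 held 8.75% ± 0.263, 8.70% ± 0.0740 and 10.6% ± 0.456, and its CEBPA-first samples were above those of both other groups without overlap. BC100530 held 24.9% ± 0.120, 23.3% ± 1.13 and 25.2% ± 0.674, lower without overlap in CSF3R-first than in CSF3R-only. Gm5483 held 20.8% ± 0.435, 22.6% ± 0.260 and 23.7% ± 1.49, lower without overlap in CSF3R-only than in both other groups. BC117090 held 0.213% ± 0.0108, 0.171% ± 0.0373 and 0.189% ± 0.0552, with overlap between all groups. Stfa1, BC100530 and Gm5483 together made up most of the counts in every sample. Shares add up to a whole, so that a drop in 1 member raises the others, and they were compared by overlap alone.

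**Figure D3:**
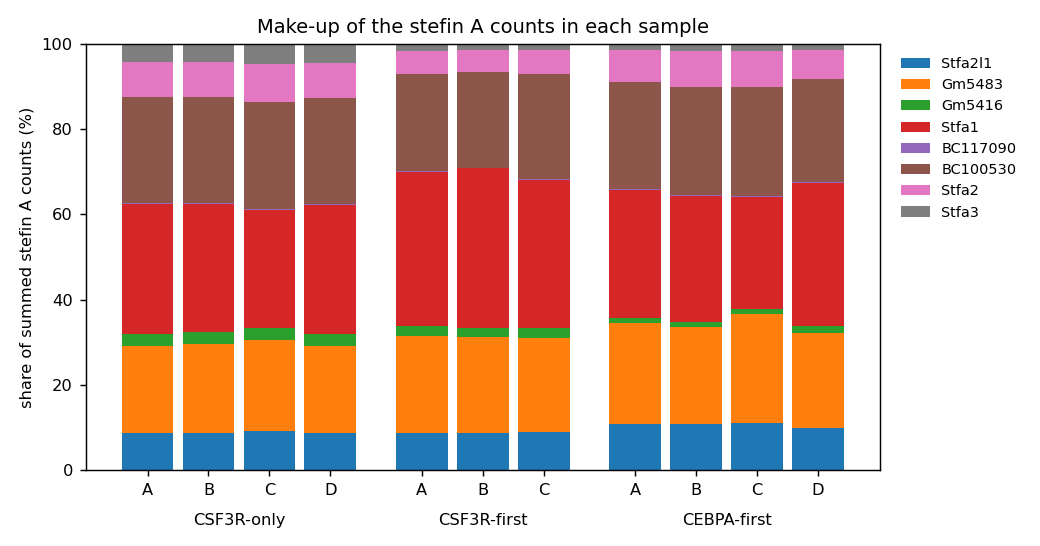
Share of each stefin A gene in the summed counts of the 8 genes, in percent, 1 bar for each sample (letters are replicates). Stfa3, the top segment, holds 4.26% to 4.78% in CSF3R-only samples and 1.35% to 1.76% in the others, and the segment of Stfa1 is widest in CSF3R-first, at 34.7% to 37.4%.

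Other genes of the region were compared in the same fit. Within the cluster, 2010005H15Rik, the stefin A gene that RefSeq calls Csta2, was at 193 ± 13.1, 83.1 ± 35.6 and 4.84 ± 1.18 CPM and fell in each comparison. Its log2 fold change was -5.33 (SE 0.26, adjusted p = 3.1e-09) for CEBPA-first against CSF3R-only, -1.21 in CSF3R-first against CSF3R-only and -4.11 in CEBPA-first against CSF3R-first. It shares exact stretches with Gm5483. Csta1, beside the cluster, had at most 5 counts in any sample and was not tested. Another 5 gene models within the cluster (Gm10913, Gm24801, Gm23306, Gm25465 and Gm15845, of pseudogene, snRNA and antisense type) were tested and called lower in each comparison, at levels of a few CPM or less. They had 0 to 7 counts per CEBPA-first sample and passed the count filter only through the other groups. Their calls lower in CEBPA-first therefore carry little weight. Whether reads were counted by strand is not given in the sources used here, so the models beside or over members may hold reads of the members.

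Of the 6 nearest tested genes outside, none was called lower in CSF3R-first against CSF3R-only, where 4.53% of all tested genes were. In CEBPA-first against CSF3R-only 1 of the 6 was, where 19% of all tested genes were. So few genes cannot show whether the neighbours differ from other genes. Before the cluster, Ccdc58, 64.7 kb away, was at 21.2 ± 3.20, 27.2 ± 2.39 and 34.3 ± 0.549 CPM, Fam162a, 85.2 kb away, at 133 ± 18.7, 123 ± 32.02 and 108 ± 24.97 CPM, and Wdr5b at 5.23 ± 0.624, 4.87 ± 0.477 and 4.37 ± 0.302 CPM, and none of the 3 was called in any comparison. After the cluster, Cd86, a costimulatory ligand of antigen-presenting cells 148 kb away, was at 69.7 ± 6.29, 50.4 ± 14.9 and 29.4 ± 0.415 CPM. It fell in CEBPA-first against CSF3R-only at -1.24 (SE 0.13, adjusted p = 2.6e-06), but was not called in the other comparisons. There it was lower at an adjusted p under 0.05 (edgeR) within the fold limit. Its log2 fold changes were -0.47 in CSF3R-first against CSF3R-only and -0.78 in CEBPA-first against CSF3R-first. Ildr1, at 0.217 ± 0.0635, 0.243 ± 0.0547 and 1.28 ± 0.337 CPM, rose in CEBPA-first against both other groups (2.55 and 2.39), and Eaf2, at 0.311 ± 0.0777, 0.249 ± 0.0460 and 0.274 ± 0.0372 CPM, was not called in any comparison.

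**Figure D4:**
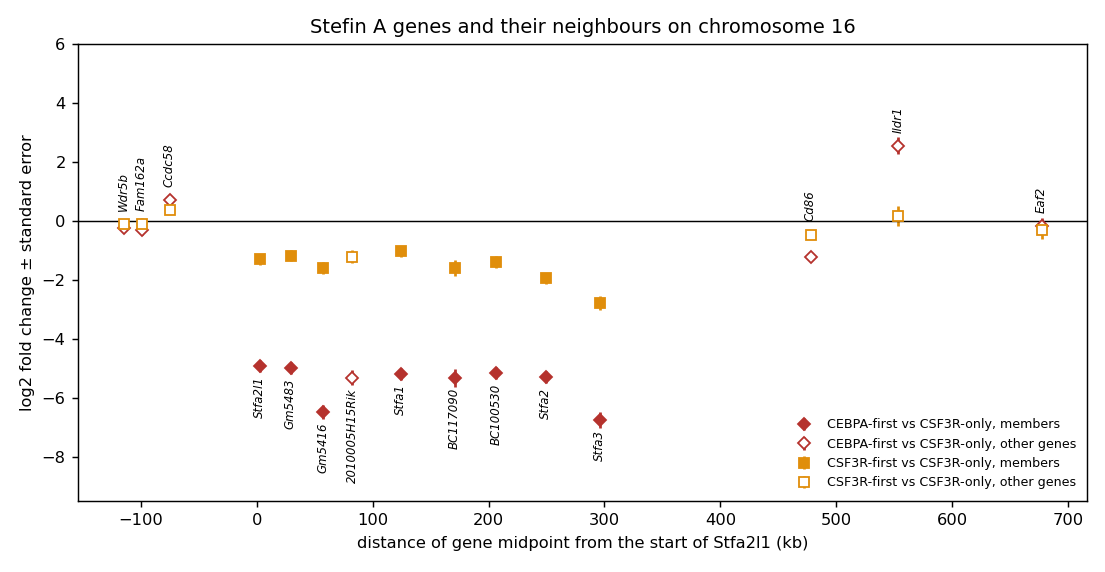
Fold change on the log2 scale of the stefin A genes (filled), of 2010005H15Rik and of the 3 nearest tested genes on either side (open), against the distance of the gene's midpoint from the start of Stfa2l1 in kb. Diamonds are CEBPA-first and squares CSF3R-first, each against CSF3R-only, and bars are standard errors; the stefin A genes lie from -6.76 to -4.91 and from -2.78 to -1.04, and the genes outside from -1.24 to 2.55 and from -0.47 to 0.36.

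Of 14 other genes with a cystatin domain, 5 were tested. Of these, 4 were called lower in CEBPA-first against CSF3R-only (19% of tested genes). In CSF3R-first against CSF3R-only (4.53%) and CEBPA-first against CSF3R-first (10.3%), 2 were called lower, each time Camp and Ngp. By the adjusted p alone (edgeR), 5, 3 and 4 of the 5 were lower in these comparisons. The shares of tested genes were then 36.6%, 21.1% and 24.3%. None of the 5 cystatin genes was called higher in any comparison. Their medians were -1.32, -0.43 and -0.92 on the log2 scale. Cstb, which encodes stefin B, the other cytosolic cystatin, was at 266 ± 23.2, 202 ± 56.1 and 106 ± 15.01 CPM. Of its log2 fold changes, -1.32 (SE 0.15, adjusted p = 3.2e-06) for CEBPA-first against CSF3R-only passed the threshold, and -0.40 and -0.92 in the other comparisons did not. Cst7, the cystatin of granules and lysosomes in immune cells, was at 119 ± 13.3, 88.8 ± 11.5 and 55.5 ± 6.40 CPM and was called in CEBPA-first against CSF3R-only alone (-1.10). Its -0.43 and -0.68 in the other comparisons had an adjusted p under 0.05 (edgeR) but missed the fold limit. Cst3, the secreted cystatin C, was at 316 ± 26.3, 254 ± 58.8 and 203 ± 16.3 CPM and was not called in any comparison. Its -0.64 in CEBPA-first against CSF3R-only had an adjusted p of 0.00029 (edgeR) and missed the fold limit. Camp (18.7 ± 3.40, 1.74 ± 0.878 and 0.562 ± 0.228 CPM) and Ngp (947 ± 166, 133 ± 71.3 and 28.5 ± 8.36 CPM), which carry a cystatin-like fold but are stored in secondary granules of neutrophils, fell in each comparison, with log2 fold changes of -5.08 and -5.05 for CEBPA-first against CSF3R-only. The other 9 (Cst6, Cst8, Cst9, Cst10, Cst11, Cst12, Fetub, Ahsg and Kng1) did not pass the count filter.

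Stefins act on cysteine proteases, and these were followed too. Of 11 cysteine proteases tested (10 cathepsins of the papain family and legumain), 7 were called lower in CEBPA-first against CSF3R-only (19% of tested genes). In CSF3R-first against CSF3R-only 0 were called lower (4.53% of tested genes), and in CEBPA-first against CSF3R-first 1 was (10.3%). None of the 11 was called higher in any comparison. In CSF3R-first against CSF3R-only their log2 fold changes ran from -0.92 in Ctsf to -0.11 in Ctsz, and the 0 rested on the fold limit: by the edgeR test without it, 8 of 11 were lower at an adjusted p under 0.05, where 21.1% of tested genes were, and 9 at an unadjusted p under 0.05. In CEBPA-first against CSF3R-first, 5 were lower and Ctsf (0.98) higher at an adjusted p under 0.05, where 24.3% of tested genes were lower. The medians in the 3 comparisons were -1.13, -0.61 and -0.54. Ctsb, with the highest CPM of the list, was at 2987 ± 323, 1741 ± 580.5 and 822 ± 185 CPM and fell in CEBPA-first against CSF3R-only at -1.86 (SE 0.20, adjusted p = 2.1e-06) and against CSF3R-first at -1.08. Ctss, which trims the invariant chain of MHC class II, was at 779 ± 108, 499 ± 184 and 268 ± 68.02 CPM (-1.54), and Ctsh, an aminopeptidase, at 105 ± 16.1, 64.6 ± 19.6 and 43.6 ± 8.04 CPM (-1.27). Lgmn (-1.07), Ctso (-1.27), Ctsk (-1.25) and Ctsw (-1.13) were the other calls. Ctsl, at 762 ± 40.3, 499 ± 157 and 444 ± 59.5 CPM, Ctsc, which activates the serine proteases of neutrophil granules, at 1568 ± 145, 1100.4 ± 241 and 1009.8 ± 125 CPM, and Ctsz, at 652 ± 48.9, 604 ± 87.3 and 479 ± 23.3 CPM, were not called in any comparison. In CEBPA-first against CSF3R-only their log2 fold changes (-0.78, -0.63 and -0.44) had an adjusted p under 0.05 (edgeR) but missed the fold limit. By the adjusted p alone, 10 of 11 proteases were lower there, where 36.6% of tested genes were. The sum of the 11 proteases was 6184 to 7572 CPM in CSF3R-only, 3825 to 6110 in CSF3R-first samples and 2588 to 3589 in CEBPA-first.

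Markers of neutrophil maturation were lower in the same groups as the cluster. Of all tested genes, 19%, 4.53% and 10.3% were called lower in the comparisons named next, in that order. Of 14 late neutrophil genes, 13 were called lower in CEBPA-first against CSF3R-only, 10 in CSF3R-first against CSF3R-only and 13 in CEBPA-first against CSF3R-first, with medians of -3.32, -1.33 and -2.09. Camp, Ngp and Fpr1 are among them and are named elsewhere as well. Their summed level was 27653 to 33999 CPM in CSF3R-only, 14881 to 25957 in CSF3R-first samples and 6517 to 8689 in CEBPA-first. Mmp9, a gelatinase of tertiary granules, fell in each comparison (-5.59, -2.02 and -3.57 in the 3 comparisons, in the order of the counts above), as did Fpr1, a receptor for formylated peptides (-6.47, -1.74 and -4.73). Mmp8, a collagenase, was not called in any comparison (7742 ± 390.1, 6517 ± 1969 and 4824 ± 676 CPM). S100a8 (7077 ± 755, 5066 ± 1350.4 and 1131 ± 159.7 CPM) fell in CEBPA-first against CSF3R-only (-2.65), and its -0.48 in CSF3R-first against CSF3R-only did not pass the fold limit. The 3 CSF3R-first samples had the same order here as in the stefin A sum, with A highest (25957 CPM), C next (17909) and B lowest (14881). The part of maturing neutrophils in the stefin A result was not tested.

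**Figure D5:**
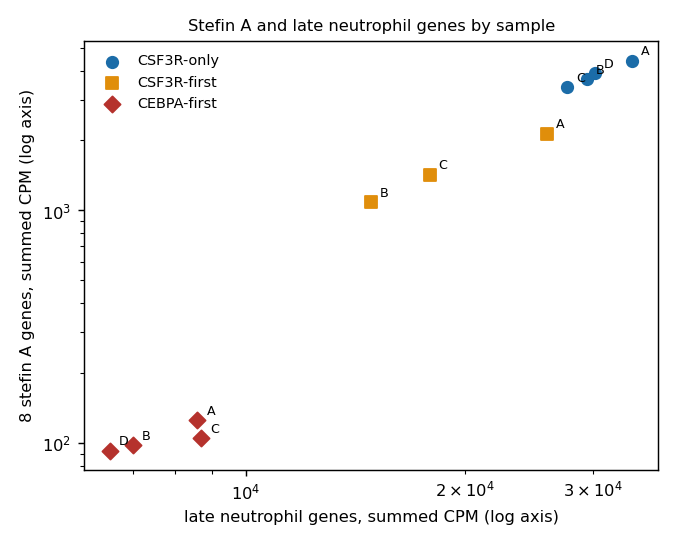
Summed CPM of the 8 stefin A genes against that of the 14 late neutrophil genes in each of the 11 samples, both on log axes; letters are replicates. The stefin A sum runs from 92.7 to 4401 CPM and the late neutrophil sum from 6517 to 33999 CPM, and CSF3R-first samples lie between the other groups in both.

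Markers of other cells that the cultures could hold also differed between groups. Of all tested genes, 19%, 4.53% and 10.3% were called lower and 8.07%, 2.13% and 2.57% higher in the 3 comparisons. The 8 monocyte and macrophage genes summed to 2774 to 3561 CPM in CSF3R-only, 1566 to 2675 in CSF3R-first samples and 890 to 1231 in CEBPA-first, with 6, 1 and 4 of 8 called lower in the 3 comparisons. Within this list Klf4 and Ly6c2 had log2 fold changes of 0.54 and 0.32 for CEBPA-first against CSF3R-only, above 0 at an adjusted p under 0.05 (edgeR) but within the fold limit. The 5 megakaryocyte genes summed to 814 to 1107, 319 to 486 and 109 to 153 CPM, with 5, 5 and 4 of 5 called lower. The 5 primary granule genes of promyelocytes summed to 2860 to 3499, 4777 to 5556 and 6300 to 6757 CPM, and 3, 1 and 0 of them were called higher. Elane (509.8 ± 53.1, 797 ± 82.3 and 1233 ± 101 CPM), the neutrophil elastase, rose in CEBPA-first against CSF3R-only (1.27), as did Prtn3 and Ctsg, whereas Mpo and Ms4a3 were called in no comparison. Without the fold limit, all 5 primary granule genes were higher in CEBPA-first and in CSF3R-first against CSF3R-only at an adjusted p under 0.05 (edgeR). Mpo was among them (0.88 and 0.63). In CEBPA-first against CSF3R-first, 4 were higher and Ms4a3 lower (-0.27) at an adjusted p under 0.05. These counts were the same at an unadjusted p under 0.05. The part of these cells in the stefin A difference was not tested.

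The genes most like the cluster were ranked by Pearson's r between their log2 CPM and that of the stefin A sum over the 11 samples, among 11828 tested genes with a mean of at least 1 CPM. The 10 highest, at r = 0.997 to 0.999, were Wfdc21, Fpr1, Klra17, Fam110c, Il1b, Asprv1, Ebi3, Relb, A930007I19Rik and Fcnb. Such values were common, since 106 genes had r over 0.99 and 1347 over 0.95, and the points fall into the 3 groups. The 10 differed in size of change: Fpr1 was at 557 ± 71.1, 167 ± 81.2 and 6.29 ± 1.12 CPM, its log2 fold change being -6.47 for CEBPA-first against CSF3R-only, Il1b, the inflammatory cytokine, at 195 ± 24.8, 79.5 ± 35.6 and 6.58 ± 1.002 CPM (-4.89), and Wfdc21, a small secreted protein of the whey acidic protein family, at 321 ± 36.2, 177 ± 52.5 and 32.1 ± 3.81 CPM (-3.32). Relb, a subunit of NF-kappaB, was at 69.03 ± 6.70, 36.9 ± 7.97 and 8.57 ± 1.29 CPM (-3.01).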

How the data were processed

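Lineage-negative mouse bone marrow cells were sequenced as single reads after total RNA extraction and low-input cDNA synthesis. The authors trimmed reads with Trimmomatic, aligned them with STAR (genome mm10, per the labels) and deposited raw counts per gene, whole numbers without normalization. Counting tool, annotation, strand setting and treatment of reads with several matches are not given in the sources used here. Total counts were 47905747 to 72268346 per sample, and a count of 0 allows up to 3 counts, 0.0383 to 0.0648 CPM (counting error only).

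Counts were scaled by TMM, filtered by filterByExpr and tested with edgeR 4.0.16 (R 4.3.3) by quasi-likelihood in 1 fit of all 11 samples, with Benjamini-Hochberg adjustment over 15703 genes. Each SE is the log2 fold change over the square root of F. Log2 CPM used a prior count of 2. Alternatives were DESeq2 1.42.0, other scalings, filters, thresholds and members of the sum, a replicate block, and each sample left out. In simulated counts for CEBPA-first against CSF3R-only (15703 genes), 63 of 63 genes changed by 5 on the log2 scale and 59 of 66 changed by 1.5 were recovered, and 6 unchanged genes were called. Coding sequences of GENCODE M21 were aligned with MAFFT 7.526. No replicates agreed within sampling noise (chi-square per degree of freedom of 9.11 or more). The members and gene lists were chosen with earlier results of these data known. The genes named were the members, other stefin or cystatin-domain genes of the cluster, the 3 nearest tested genes on either side, listed cystatins and cysteine proteases, the 10 genes most correlated with the sum, and marker genes where a result turned on them. The small RNA, pseudogene and antisense models of the cluster were named after their values were seen.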

Additional observations from a re-analysis of the deposited data

How the results depend on the processing

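All 8 members were called lower in CEBPA-first against CSF3R-only and against CSF3R-first under every scaling, DESeq2, no count filter, the 2 compared groups alone, an adjusted p without a fold limit, and with any 1 sample left out. At least 10 counts in every sample removed BC117090 and left 7 of 7 called in each comparison. With a replicate block of the letters the counts were 8, 8 and 8. The labels do not say whether the letters pair samples. Deviations of same-letter samples correlated at -0.107 to 0.363, over 0.1 in 7 of 10 pairs, and 6 of 11 samples correlated best with their own letter. These correlations do not decide whether samples of 1 letter share an animal or a batch. In CSF3R-first against CSF3R-only, leaving out single samples gave 6 to 8 calls, and Stfa1 also missed the fold limit with library size only (-0.97) and without a count filter (-0.99). No log2 fold change reversed. Over single samples left out, the sum was 34.8 to 39.0-fold, 2.15 to 3.06-fold and 11.9 to 17.0-fold lower in the order of CEBPA-first against CSF3R-only, CSF3R-first against CSF3R-only and CEBPA-first against CSF3R-first, and the position of CSF3R-first was 0.218 to 0.312. Without Stfa1 the folds were 36.6, 2.71 and 13.5, and with 2010005H15Rik and Csta1 added they were 36.7, 2.47 and 14.9. Depth limits BC117090 most, at 6 to 17 counts in CEBPA-first samples, and CSF3R-first has the fewest samples and the widest spread.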

Other observations

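Further values within the cluster concern the closest pair. The ratio of Stfa1 to BC100530 counts was 1.11 to 1.24 in CSF3R-only, 1.41 to 1.65 in CSF3R-first samples and 1.03 to 1.39 in CEBPA-first, so that the CSF3R-first samples stood above those of both other groups. The 2 genes share exact stretches of 100 bases, and how such reads were counted is not given in the sources used here.

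The remaining marker lists were as follows. In CEBPA-first against CSF3R-only, 19% of all tested genes were called lower and 8.07% higher. The 5 mast cell and basophil genes summed to 1315 to 2094 CPM in CSF3R-only, 777 to 1045 in CSF3R-first samples and 874 to 1234 in CEBPA-first. Of these, in CEBPA-first against CSF3R-only, 1 was called lower (Mcpt8, log2 fold change -2.20) and 1 higher (Fcer1a, 1.15); Mcpt8 was also called lower in CSF3R-first against CSF3R-only (-1.21), and Fcer1a higher in CEBPA-first against CSF3R-first (2.04). The 5 erythroid genes summed to 138 to 222, 64.6 to 184 and 47.3 to 71.0 CPM, and in CSF3R-first sample A, the highest for stefin A, they were lowest. The 6 stem and progenitor genes summed to 206 to 275, 216 to 312 and 393 to 439 CPM. Among them 3 were called higher and 2 lower when CEBPA-first was set against CSF3R-only: Myb (108 ± 14.6, 186 ± 32.6 and 331 ± 13.6 CPM), Hlf (2.92 ± 0.510, 3.06 ± 0.386 and 13.96 ± 3.35 CPM) and Flt3 (2.34 ± 0.557, 3.96 ± 1.46 and 6.60 ± 0.622 CPM) higher, Cd34 (88.8 ± 11.4, 44.1 ± 15.04 and 17.9 ± 1.49 CPM) and Meis1 (18.8 ± 1.40, 12.7 ± 3.05 and 6.40 ± 0.709 CPM) lower.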
